A study of Mus musculus with 12 samples.

Results

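Collagen genes encode the chains of a large protein family of the extracellular matrix, and their expression was followed in C2C12 cells, an established line of mouse myoblasts that fuse into myotubes when serum is lowered. A gene was taken as a collagen gene where the deposited array annotation names its target COL, a number, A and a number, with nothing more, in either case. This gave 40 genes on 88 probes, of 28903 genes on the array, with 1 to 5 probes for each collagen gene. Each gene is represented by its brightest probe, and 22 of the 40 genes passed the detection filter, among 11452 genes that did so in all. The filter asked for a detection p below 0.01, set against negative-control beads, on both arrays in 1 group or more.

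RNA was hybridised to 12 Illumina mouse whole-genome bead arrays, 2 for each of 6 groups. In growth medium (GM, 20% fetal bovine serum) the groups were embelin and DMSO, in differentiation medium (DM, 2% horse serum) at 24 h they were embelin and DMSO, and in DM at 48 h they were again embelin and DMSO. Embelin, a plant benzoquinone, was given at 10 uM, and DMSO is its solvent. One field of the labels gives 0 h and another 24 h of treatment for the GM cells, so their exposure time is uncertain, and the labelling kit named there is Agilent's whereas the headers and probes are Illumina's. All groups are of the same cell line with no genetic change, replicates carry the numbers 1 and 2, and nothing states that they were separate cultures, so the p-values reflect the spread among the samples at hand, and this may be no more than technical. With 2 arrays a group, the number of arrays limits the precision of every value.

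Collagen chains wind around each other into helical molecules inside the cell and are secreted, trimmed and cross-linked outside it. Fibrillar collagens form the tensile fibrils of connective tissue, network collagens form sheets such as the basement membrane, beaded-filament collagen VI links cells to that sheet, and fibril-associated collagens coat the fibrils. In skeletal muscle a basement membrane rich in collagen IV surrounds each fibre, and inherited defects of collagen VI or XII chains cause muscle disease.

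The arrays had between 15031 and 16314 of 45281 probes detected, and the 75th percentile of the deposited signals lay between 123.1 and 154.9. The cell type markers Myod1, Des and Cdh15 were detected on all 12 arrays, whereas the myoblast markers Myf5 and Pax7 were detected on none. The 6 myotube markers were all detected on both arrays of each DM group. In GM, 5 of them were already detected on both arrays of each group, Ckm being the exception. The fibroblast markers Thy1, Dpt and Tcf21 were below detection on every array, and Pdgfra and Ly6a were detected. Replicate 2 of the embelin GM group stood apart, at -48.7 on the first principal component of all genes against -70.7 to -70.2 for the other 3 GM arrays. Some results that rest on this array are given with and without it, and the others with it only.

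Fibrillar collagens had 8 of 11 genes above the filter, the basement membrane collagens 3 of 6, the beaded-filament collagens 3 of 3 and the fibril-associated collagens 3 of 9. The short-chain network collagens passed in 2 of 3, the transmembrane collagens in 1 of 4, the multiplexins in 1 of 2, and the anchoring-fibril gene Col7a1 passed as well. The 18 genes that did not pass were Col2a1, Col11a1 and Col27a1 of the fibrillar class, Col4a3, Col4a4 and Col4a6 of the basement membrane class, and Col9a2, Col9a3, Col10a1, Col13a1, Col14a1, Col15a1, Col17a1, Col19a1, Col20a1, Col22a1, Col25a1 and Col28a1. They were detected on 0 arrays, and their highest deposited signal was 83.8.

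The number of genes detected differed between stages. On both arrays of a group, 15 of the 40 genes were detected in embelin GM cells and 16 in DMSO GM cells. At 24 h in DM the numbers were 19 with embelin and 18 with DMSO. At 48 h they were 16 with embelin and 21 with DMSO. On 1 array only, 3 further genes were detected in embelin GM cells and 0 in DMSO GM cells. At 24 h that number was 1 in each group, and at 48 h it was 3 with embelin and 0 with DMSO. A total of 14 genes were detected on all 12 arrays. Of the other 8 that passed, Col23a1 and Col9a1 passed only through the 48 h DMSO arrays and Col11a2 only through the DMSO GM arrays. Col5a3, Col6a2, Col8a2 and Col24a1 passed only through groups in DM. The filter could favour a difference for all of these genes, including their rises from GM to DM. Counts over the 22 genes that passed are therefore given as descriptions.

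**Figure D1:**
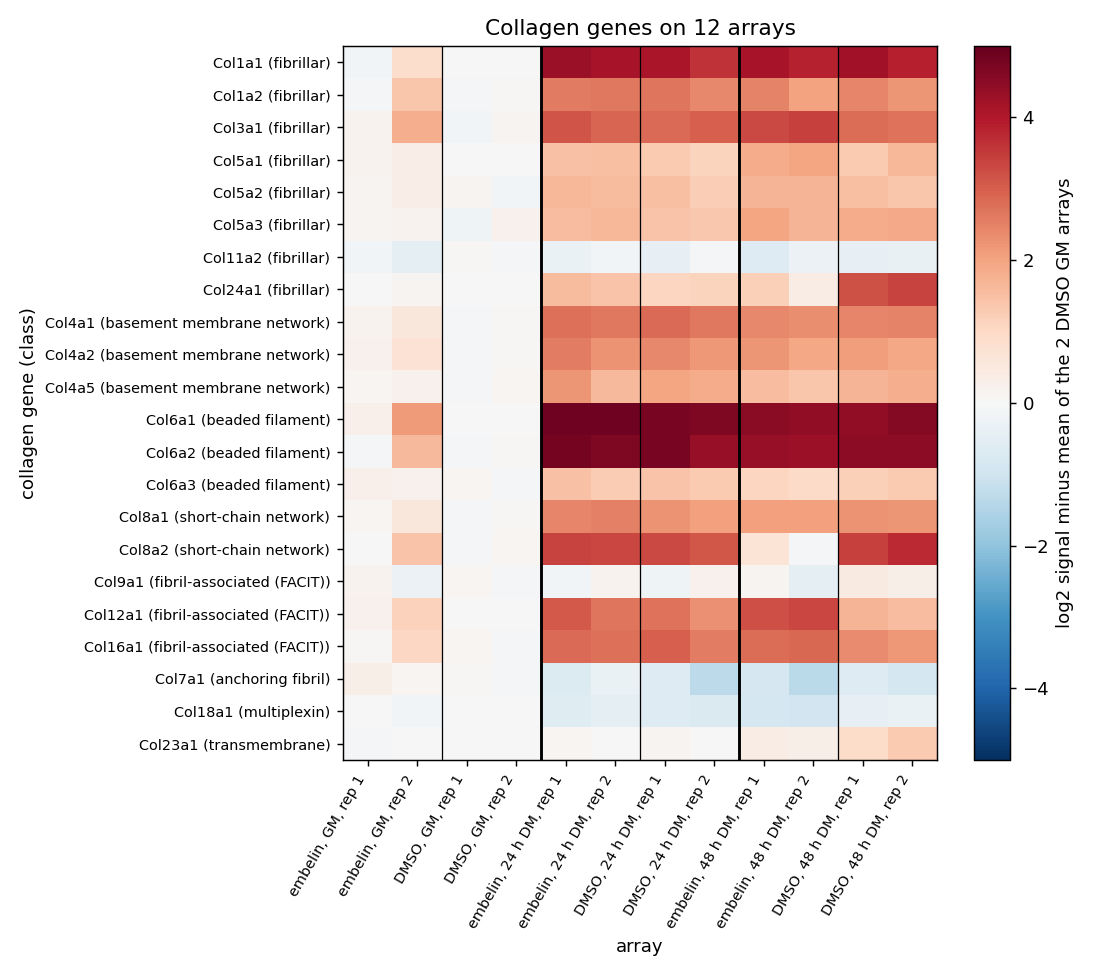
Normalized log2 signal of the 22 collagen genes that passed detection (rows, grouped by class) on the 12 arrays (columns, embelin left of DMSO at each stage), each minus the mean of the 2 DMSO GM arrays. Col6a1, Col6a2 and Col1a1 are darkest red on all 8 DM arrays, and Col8a2 is red on 6 DM arrays and pale on the 2 embelin arrays at 48 h.

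The first comparison asked which collagen genes change as DMSO cells leave growth medium. At 48 h in DM, 18 collagen genes were higher and 2 lower than in GM at an adjusted p under 0.05 (limma, Benjamini-Hochberg over all 11452 genes tested), where 27.4% of all genes tested were called higher, 34.6% lower and 62% in either direction. At 24 h in DM, 17 were higher and 2 lower, against 26.1% and 31.5% of all genes and 57.6% in both directions together. The median log2 difference from GM over the 22 genes was 1.94 at 48 h and 2.03 at 24 h, beside -0.08 and -0.06 over all genes. Restricting the fit to genes detected on all 12 arrays left 14 collagen genes, of which 13 were called higher and 1 lower at both times. The median log2 difference over all genes in that fit was -0.11 at 48 h and -0.07 at 24 h. The shares of all genes above belong to the full fit and not to this smaller one. In bulk samples, fewer cells of a type and less RNA per cell cannot be told apart.

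The largest fitted difference at 48 h was that of a collagen VI gene. Col6a1, which encodes a chain of the beaded filaments around muscle fibres, had normalized log2 signals of 12.39 and 12.54 on the DMSO arrays at 48 h and 12.71 and 12.61 at 24 h, against 7.92 and 7.98 in DMSO GM. The DM arrays all lay above the GM arrays, with no overlap. The log2 difference was 4.51 at 48 h (SE 0.43, limma adjusted p = 5.58e-06), 22.8-fold, and 4.71 at 24 h (SE 0.43, adjusted p = 6.92e-06). Col6a2, its partner chain, stood at 9.39 and 9.36 at 48 h and 9.65 and 9.27 at 24 h, against 4.84 and 4.96 in DMSO GM, where it was not detected. By its brightest probe it was therefore at least 15.6-fold higher at 48 h and at least 16.6-fold higher at 24 h. In a fit of all passing probes, a second Col6a2 probe rose by less, by 2.03 on the log2 scale at 48 h and 2.04 at 24 h. Other Col6a1 probes rose by 4.4 and 2.74 at 48 h. "At least" marks a group in which a gene was detected on no array: the brighter group's mean is then set against the lowest detected signal of each dim array, or the probe's own signal where that is higher. Col6a3, the third chain of the filament, rose by less, with a log2 difference of 1.24 at 48 h (SE 0.11, limma adjusted p = 4.39e-06), and its GM values were 10.71 and 10.51 in DMSO cells.

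Fibrillar collagens followed. Col1a1, a chain of the main fibril collagen, had log2 signals of 12.23 and 11.93 at 48 h and 12.15 and 11.68 at 24 h in DMSO cells, against 8.07 and 8.03 in DMSO GM. All DM values exceeded both GM values, and the difference at 48 h was 4.03 (SE 0.28, limma adjusted p = 5.68e-07), 16.3-fold. Its partner chain gene Col1a2 rose by 2.33 on the log2 scale at 48 h (SE 0.36, adjusted p = 0.000208), and Col3a1, which forms fine fibrils beside collagen I, by 2.74 (SE 0.38, adjusted p = 0.000103). The collagen V genes, whose products help to start fibrils, rose by 1.49 for Col5a1 and 1.44 for Col5a2, and Col5a3, not detected in GM, was at least 2.90-fold higher. Col24a1, a minor fibrillar collagen known from developing bone, had 7.63 and 7.83 at 48 h and 5.53 and 5.56 at 24 h in DMSO cells, against 4.48 and 4.43 in DMSO GM, where it was not detected. By its brightest probe it was at least 5.0-fold higher at 48 h and at least 1.10-fold higher at 24 h. Other Col24a1 probes rose by 3.36 and 1.53 on the log2 scale at 48 h. At 24 h they rose by 1.38 and 0.32, the latter not called (limma adjusted p = 0.0617). Col11a2, best known from cartilage and not detected in DMSO cells in DM, had a log2 difference of -0.39 at 48 h that was not called (limma adjusted p = 0.0641).

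The network collagens moved the same way. The basement membrane genes Col4a1, Col4a2 and Col4a5 rose at 48 h by 2.47 (SE 0.14), 2.02 (SE 0.18) and 1.76 (SE 0.17) on the log2 scale. Col8a1, a chain of the short-chain networks of vessel walls and cornea, rose by 2.24 (SE 0.14, limma adjusted p = 3.15e-07). Its partner Col8a2 had log2 signals of 8.20 and 8.51 at 48 h and 8.11 and 7.90 at 24 h in DMSO cells, against 4.69 and 4.90 in DMSO GM, where it was not detected. It was thus at least 7.69-fold higher at 48 h and at least 6.03-fold higher at 24 h.

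Of the fibril-associated collagens, Col16a1 rose by 2.26 (SE 0.25) and Col12a1 by 1.61 (SE 0.26) on the log2 scale at 48 h. Col9a1, known from cartilage and not detected in GM, had a difference of 0.37 that was not called (limma adjusted p = 0.177). Col23a1, a transmembrane collagen, was detected on the 48 h DMSO arrays and on no other array, and was at least 1.04-fold higher there than in GM. The 2 genes that fell were Col18a1 and Col7a1. Col18a1, a basement membrane multiplexin that is the source of endostatin, had log2 signals of 10.55 and 10.61 at 48 h and 10.32 and 10.24 at 24 h in DMSO cells, against 10.97 and 10.93 in DMSO GM, a difference of -0.37 at 48 h (SE 0.10, limma adjusted p = 0.00644). In a fit of all passing probes, a second Col18a1 probe had -0.43 at 48 h, which was not called (limma adjusted p = 0.0938). At 24 h that probe was called, at -0.67 (adjusted p = 0.0172). Col7a1, the anchoring-fibril collagen of skin, had 5.95 and 5.73 at 48 h and 5.95 and 5.28 at 24 h, against 6.66 and 6.52 in DMSO GM. Its DM values were all below its GM values, with a difference of -0.75 at 48 h (SE 0.23, limma adjusted p = 0.0143). That call was lost without replicate 1 of the DMSO GM group (adjusted p = 0.0758) or replicate 2 of the 48 h DMSO group (adjusted p = 0.0859).

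Between 24 h and 48 h in DMSO cells, 17 of the 22 genes were not called. A total of 5 were called, 4 higher and 1 lower at 48 h, against 15.2% and 17.6% of all genes and 32.7% in both directions. Col24a1 rose by a further 2.19 (SE 0.21, limma adjusted p = 5.16e-05), and Col23a1, not detected at 24 h, was at least 1.03-fold higher at 48 h (adjusted p = 0.000181). Both were called in 20 of 20 alternatives, but Col23a1 passed the filter only through the 48 h DMSO arrays, which favoured its call. Smaller rises were 0.48 for Col5a3, called in 13 of 20 alternatives, and 0.30 for Col18a1, called in 11 of 21. A second Col18a1 probe had 0.24, which was not called in a fit of all passing probes (limma adjusted p = 0.411). Col12a1 fell by 0.89 (SE 0.26, limma adjusted p = 0.0234), a call made in 16 of 21 alternatives. Leaving out any 1 of the 12 arrays gave 2 to 6 calls. The count was 2 without replicate 1 of the 24 h DMSO group or replicate 2 of the 48 h DMSO group, and 3 without replicate 2 of the 24 h or replicate 1 of the 48 h DMSO group.

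Several of these genes are neighbours in the genome. In RefSeq's mouse annotation (GRCm38.p6), Col6a2 and Col6a1 are adjacent protein-coding genes on chromosome 10, Col4a1 and Col4a2 on chromosome 8, and Col3a1 and Col5a2 on chromosome 1. In each of these 3 pairs both genes were called higher at 48 h in DMSO cells. Col9a1 and Col19a1 on chromosome 1 and Col4a6 and Col4a5 on chromosome X are also adjacent, and in those pairs Col19a1 and Col4a6 were not detected. Col4a4 and Col4a3, adjacent on chromosome 1, were both undetected.

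The second comparison asked what embelin does to these genes after 48 h in DM. Embelin cells had 4 collagen genes lower and 2 higher than DMSO cells (limma adjusted p under 0.05), where 19.9% of all genes tested were called lower, 19.8% higher and 39.7% in either direction, so the share of the 22 genes called, 27.3%, was below that of all genes. The genes lower with embelin were Col8a2, Col24a1, Col23a1 and Col18a1, and those higher were Col12a1 and Col5a1. The median log2 difference over the 22 genes was -0.09, beside 0 over all genes.

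Col8a2 had the largest difference. Its log2 signals were 5.48 and 4.75 with embelin at 48 h, against 8.20 and 8.51 with DMSO, and the deposited signals were 83.1 and 64.7 against 291.6 and 360.5. The groups did not overlap, and 1 of the 2 embelin arrays detected the probe. The difference was -3.24 (SE 0.37, limma adjusted p = 7.26e-05), 9.43-fold lower with embelin. It was called in 20 of 20 alternatives, and its size depended on them: the log2 difference ran from -3.60 to -2.26, the smallest being that of the series matrix. Of its 3 probes only 1 passed detection, so no other probe gives a second reading.

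Col24a1 had log2 signals of 5.65 and 4.82 with embelin at 48 h, against 7.63 and 7.83 with DMSO. Both embelin arrays lay below both DMSO arrays, and 1 of them detected the probe. The difference was -2.50 (SE 0.21, limma adjusted p = 1.18e-05), 5.64-fold lower. Over 20 alternatives, in all of which it was called, the difference ran from -2.65 to -1.66, the smallest with 75th percentile scaling or the series matrix. In a fit of all passing probes, the 2 further probes of Col24a1 were also called, with log2 differences of -2.58 (adjusted p = 2.42e-06) and -1.27 (adjusted p = 4.84e-05).

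The stretches of 250 bases before the RefSeq start site are shown for the 2 genes that fell most, Col8a2 and Col24a1, for Col8a1, which is the partner chain of Col8a2 but was not called, and for Col5a1, which was called higher. Capitals mark 2 motifs searched on both strands: the E-box cores CAGCTG and CAGGTG (reverse complement CACCTG), which muscle regulatory factors such as MyoD are known to bind, and the GC box GGGCGG (reverse complement CCGCCC). Sequences are from RefSeq, GRCm38.p6, 5′ to 3′ in the direction of the gene, at chr4:126286544-126286793 (plus strand) for Col8a2, chr3:145292222-145292471 (plus strand) for Col24a1, chr16:57754738-57754987 (minus strand) for Col8a1 and chr2:27886175-27886424 (plus strand) for Col5a1.
Col8a2: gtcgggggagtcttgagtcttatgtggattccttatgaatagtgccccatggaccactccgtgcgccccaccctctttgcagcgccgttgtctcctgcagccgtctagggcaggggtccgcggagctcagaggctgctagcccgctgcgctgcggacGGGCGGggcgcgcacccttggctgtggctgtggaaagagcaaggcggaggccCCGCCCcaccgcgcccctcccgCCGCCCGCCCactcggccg
Col24a1: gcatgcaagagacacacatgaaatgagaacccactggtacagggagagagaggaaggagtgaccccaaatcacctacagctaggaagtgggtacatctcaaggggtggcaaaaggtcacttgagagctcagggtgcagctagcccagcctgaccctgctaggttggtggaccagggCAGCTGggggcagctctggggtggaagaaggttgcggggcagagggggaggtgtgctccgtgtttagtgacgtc
Col8a1: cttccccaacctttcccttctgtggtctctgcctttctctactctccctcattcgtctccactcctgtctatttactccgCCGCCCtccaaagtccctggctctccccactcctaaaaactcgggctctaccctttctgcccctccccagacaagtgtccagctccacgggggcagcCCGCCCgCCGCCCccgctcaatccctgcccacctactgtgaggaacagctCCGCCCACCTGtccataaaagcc
Col5a1: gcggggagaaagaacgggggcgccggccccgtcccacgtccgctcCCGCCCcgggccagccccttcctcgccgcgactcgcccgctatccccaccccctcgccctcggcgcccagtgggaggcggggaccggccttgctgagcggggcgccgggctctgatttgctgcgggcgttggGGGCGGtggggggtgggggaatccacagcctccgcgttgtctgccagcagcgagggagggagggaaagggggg
Col24a1 holds 1 E-box core, 74 bases before the start, and 0 GC boxes, and Col8a2 holds 0 E-box cores and 4 GC boxes. Col8a1 holds 1 E-box core, 18 bases before the start, and 4 GC boxes, of which 1 overlaps the E-box, and Col5a1 holds 0 E-box cores and 2 GC boxes. Over 32851 RefSeq promoter windows of this length, 13% held CAGCTG, 17.2% held CAGGTG, 33.8% held CCAAT (reverse complement ATTGG) and 32.7% held GGGCGG. The 40 collagen genes had 35 windows from 32 genes, and CAGCTG was in 5, CAGGTG in 3, CCAAT in 12 and GGGCGG in 19 of them. For the collagen genes that passed detection the counts were 3, 2, 9 and 14 of 22 windows, from 19 genes.

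Col12a1, whose product decorates collagen I fibrils in tendon and muscle, was higher with embelin. Its log2 signals were 11.09 and 11.22 with embelin at 48 h, against 9.55 and 9.39 with DMSO. The groups did not overlap, and the difference was 1.68 (SE 0.26, limma adjusted p = 0.000555), 3.20-fold. A second probe gave 1.51 (SE 0.22, adjusted p = 0.000385). Col5a1 had 13.63 and 13.75 with embelin, against 13.11 and 13.45 with DMSO, a difference of 0.41 (SE 0.13, limma adjusted p = 0.0263). Its call was lost in 6 of 21 alternatives: 75th percentile scaling, median scaling, the series matrix, and without replicate 1 of the 48 h DMSO group (adjusted p = 0.203) or either replicate of the 48 h embelin group (0.0523 without replicate 1 and 0.148 without replicate 2).

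Col18a1 and Col23a1 were lower with embelin by smaller amounts. Col18a1 had log2 signals of 10.06 and 10.00 with embelin, against 10.55 and 10.61 with DMSO, without overlap, and the difference was -0.55 (SE 0.10, limma adjusted p = 0.00138). A second probe of Col18a1 had a difference of -0.26 that was not called (adjusted p = 0.355). Col23a1 had 4.72 and 4.66 with embelin, where it was not detected, against 5.28 and 5.66 with DMSO, and was at least 1.08-fold lower (limma adjusted p = 0.000803). It passed the filter only through those DMSO arrays, which favoured its call here.

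The other 16 genes were not called at 48 h, which does not show that they were equal. The main fibril genes Col1a1 and Col1a2 had differences of -0.04 (SE 0.28) and -0.08 (SE 0.36), and the collagen VI genes had -0.03 (SE 0.43) for Col6a1, -0.15 (SE 0.39) for Col6a2 and -0.23 (SE 0.11) for Col6a3. The basement membrane genes had -0.10 for Col4a1, 0.06 for Col4a2 and -0.28 for Col4a5. Col8a1 had a difference of -0.18 (SE 0.14, limma adjusted p = 0.33), beside the -3.24 of its partner chain gene Col8a2. Col16a1 had 0.57 (adjusted p = 0.0946) and Col3a1 0.64 (adjusted p = 0.211), and a dimmer probe of Col3a1 was called at 1.25 (adjusted p = 0.012). Both were called when either array of the embelin GM group was left out of the shared spread: for Col16a1 the adjusted p was 0.00986 without replicate 1 and 0.0103 without replicate 2, and for Col3a1 it was 0.0026 and 0.00289. Col9a1, detected in no embelin array at 48 h, had a difference of -0.53 (limma adjusted p = 0.088) and was called without replicate 1 of the 48 h embelin group (adjusted p = 0.0236).

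**Figure D2:**
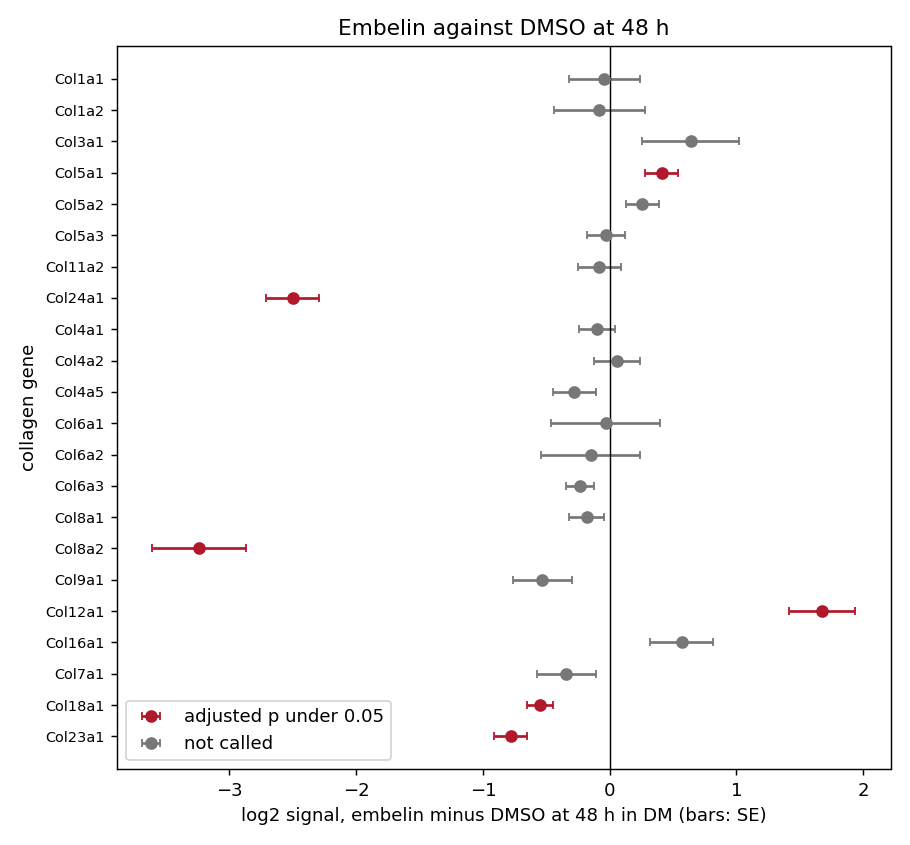
Log2 difference of embelin minus DMSO at 48 h in DM for the 22 collagen genes that passed detection, with bars of 1 SE (limma, 2 arrays a group). Red points are genes with an adjusted p under 0.05: Col8a2 at -3.24, Col24a1 at -2.50, Col23a1 at -0.78, Col18a1 at -0.55, Col5a1 at 0.41 and Col12a1 at 1.68. Col23a1 was not detected with embelin, so its point rests on signals below detection there.

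At 24 h in DM none of the 22 collagen genes was called for embelin by limma, and 0 had an unadjusted p under 0.05, where 0.0524% of all genes tested were called (0.0175% higher and 0.0349% lower). The difference was above 0 for 20 genes and below 0 for 2, with a median of 0.15 beside 0 over all genes. Col8a2 had log2 signals of 8.16 and 8.15 with embelin at 24 h, against 8.11 and 7.90 with DMSO. Col24a1 had 6.05 and 5.87 with embelin, against 5.53 and 5.56 with DMSO. Col12a1 had 10.95 and 10.56 with embelin, against 10.57 and 10.16 with DMSO, so the 2 groups overlapped for this gene.

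The difference between the embelin effects at the 2 times was itself tested. The effect at 48 h minus that at 24 h was called for 5 collagen genes, 4 below 0 and 1 above, against 7.7% and 6.61% of all genes tested and 14.3% in both directions. It was -3.39 for Col8a2 (SE 0.52, limma adjusted p = 0.0021), -2.92 for Col24a1 (SE 0.30, adjusted p = 0.000282), -0.77 for Col23a1 (adjusted p = 0.0173), -0.70 for Col18a1 (adjusted p = 0.00778) and 1.29 for Col12a1 (SE 0.37, adjusted p = 0.0405). The Col12a1 value was called in 9 of 21 alternatives, and with a replicate block its limma adjusted p was 0.0512. That of Col23a1 was called in 13 of 20. It was fitted on signals below detection in all groups but the 48 h DMSO cells, the arrays through which the gene passed the filter. Against GM, the effect at 48 h was called as different for Col8a2 (-3.96, adjusted p = 0.00051), Col24a1 (-2.58, adjusted p = 0.000254), Col23a1 (-0.74, adjusted p = 0.0132) and Col18a1 (-0.46, adjusted p = 0.0338), where 23.9% of all genes were called by limma (12.5% below 0 and 11.4% above). Col24a1 and Col23a1 were below detection on all GM arrays and Col8a2 on those of DMSO cells, so these fitted values depend on signals below detection. Col12a1 was not called against GM by its brightest probe (limma adjusted p = 0.0717), but was called in 5 of 21 alternatives. A second Col12a1 probe was called against GM, at 1.21 (limma adjusted p = 0.0176) in a fit of all passing probes. The value for Col18a1 was called in 10 of 21 alternatives. In a fit of all passing probes, a second Col18a1 probe gave -0.02 for the effect at 48 h minus that in GM (limma adjusted p = 0.975). For the effect at 48 h minus that at 24 h it gave -0.59 (adjusted p = 0.221).

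**Figure D3:**
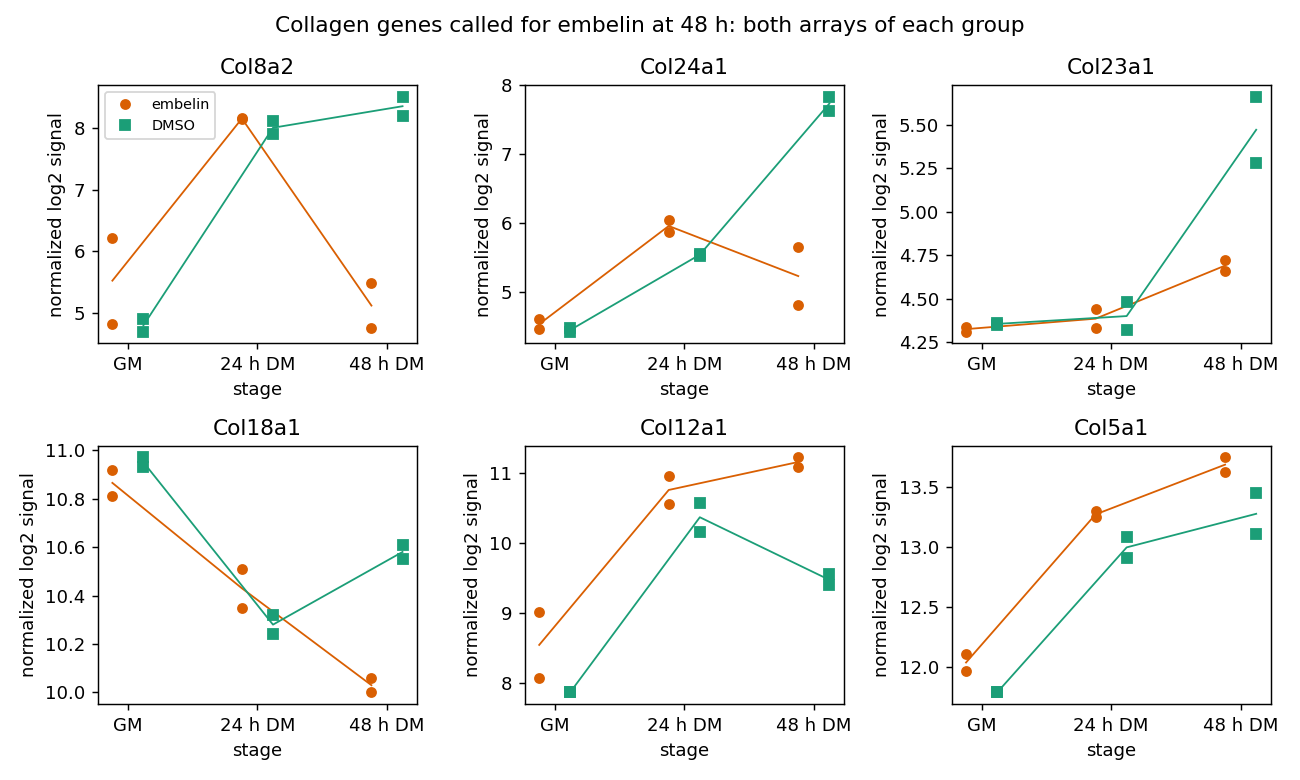
Normalized log2 signal on both arrays of each group for the 6 collagen genes called for embelin at 48 h, by stage, with embelin (circles) left of DMSO (squares) and lines through the group means. Col8a2 with embelin is at 8.16 and 8.15 at 24 h and at 5.48 and 4.75 at 48 h. With DMSO it is at 4.69 and 4.9 in GM and between 7.90 and 8.51 at 24 h and 48 h. The vertical axes differ between panels and do not start at 0.

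Within embelin cells the collagen genes still differed from GM. At 48 h in DM, 17 were higher and 2 lower than in embelin GM cells, where 30.4% and 32.7% of all genes were called by limma and 63.1% in both directions, and at 24 h 17 were higher and 2 lower, against 27.3% and 29.9% and 57.2% in both. Among the 17 at 48 h was Col23a1 (0.37, limma adjusted p = 0.0258), although no array of either group detected it. Its call was made in 14 of 20 alternatives. The medians were 1.61 at 48 h and 1.85 at 24 h, beside -0.01 and -0.03 over all genes. Col8a2 was 2.64 higher than GM at 24 h (SE 0.37, limma adjusted p = 0.000129) and its difference at 48 h, -0.40, was not called (adjusted p = 0.354). Without replicate 2 of the embelin GM group, the Col8a2 difference was 3.33 at 24 h and 0.30 at 48 h. Without replicate 1 of that group, it was 1.92 at 24 h and -1.09 at 48 h. The log2 difference of Col6a1 at 48 h was 4.24 without replicate 2, against 3.30 with both arrays, and that of Col12a1 was 3.08, against 2.61.

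From 24 h to 48 h in embelin cells, 1 collagen gene was called higher and 5 lower, against 13.8% and 15% of all genes and 28.7% in both directions (limma). Col8a2 fell by 3.04 (SE 0.37, adjusted p = 0.000176) and Col24a1 by 0.73 (SE 0.21, adjusted p = 0.0254). Smaller falls were 0.42 for Col8a1, 0.40 for Col18a1 and 0.36 for Col6a3, and Col5a1 rose by 0.41. The call was made in 20 of 20 alternatives for Col8a2 and 14 of 20 for Col24a1, and of 21 alternatives in 7 for Col8a1, 17 for Col18a1, 15 for Col6a3 and 11 for Col5a1. In a fit of all passing probes, the dimmer probes of Col24a1 were not called, at -0.37 (limma adjusted p = 0.126) and -0.01 (0.965). Nor were the dimmer probes of Col8a1 (-0.12, adjusted p = 0.588), Col18a1 (-0.35, adjusted p = 0.248) and Col6a3 (-0.36, adjusted p = 0.0998). Between 1 and 9 genes were called when 1 array was left out. The count was 1 without replicate 2 of the 48 h embelin group, 2 without its replicate 1, and 2 and 3 without replicate 1 or 2 of the 24 h embelin group.

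In GM none of the 22 collagen genes was called for embelin by limma, 6 had an unadjusted p under 0.05, and 0% of all genes were called. The 2 embelin arrays did not give the same values. Col6a1 was 10.09 on replicate 2 and 8.19 on replicate 1, against 7.92 and 7.98 in DMSO GM. Replicate 2 was higher than replicate 1 for 17 of the 22 genes, for 8 by over 0.5 on the log2 scale, with a median difference of 0.29, beside -0.01 over all genes, 5.62% of which were over 0.5 higher. The spread of the 22 genes between replicates was 0.625 in this group (root mean square SD) and 0.123 to 0.242 in the other 5 groups.

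The largest differences of replicate 2 minus replicate 1 were those of Col6a1 (1.90), Col6a2 (1.67), Col3a1 (1.66), Col1a2 (1.46), Col8a2 (1.40) and Col1a1 (1.01). Apart from Col3a1 and Col1a2, these were among the 5 largest rises of the DMSO cells at 48 h in DM. The summed signal of the myotube markers was 11800 on replicate 2 and 4330 on replicate 1, against 4070 to 4100 on the DMSO GM arrays, and its part in the collagen values was not tested. Without replicate 1, 9 collagen genes were called higher with embelin, Col6a1 by 2.13 (limma adjusted p = 1.24e-05) and Col3a1 by 1.83 (adjusted p = 0.000142) among them, and without replicate 2, 0 were called. Over all genes the counts were 341 without replicate 1 and 2 without replicate 2. Each of these fits rests on 1 embelin array, which is assumed to vary like the other groups.

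**Figure D4:**
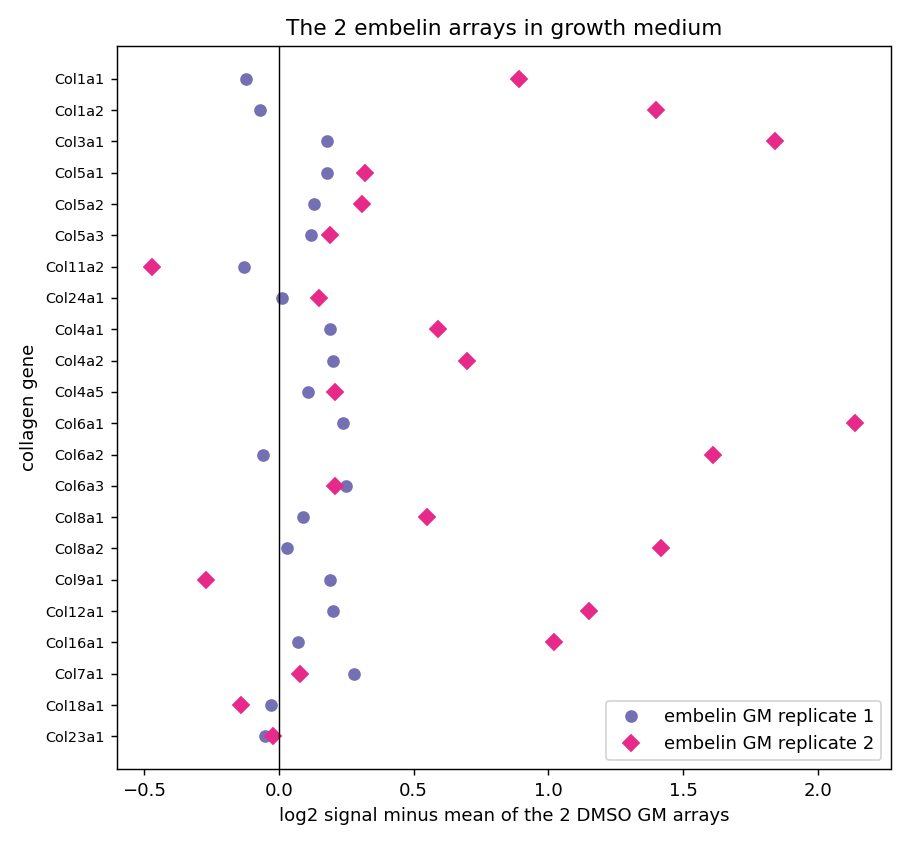
Log2 signal of the 22 collagen genes on the 2 embelin GM arrays, each minus the mean of the 2 DMSO GM arrays. Replicate 2 (diamonds) reaches 2.14 for Col6a1 and 1.84 for Col3a1, while replicate 1 (circles) lies between -0.13 and 0.28 for all 22 genes.

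The genes that handle collagen were taken from 7 lists of related functions, to be read beside the 39.7% of all genes called for embelin and the 62% called for DMSO cells at 48 h. Of 14 tested genes for chain modification and folding, 8 were higher with embelin and 0 lower, and 9 rose and 0 fell in DMSO cells at 48 h against GM. Plod2, a lysyl hydroxylase, was 1.51 higher with embelin (SE 0.23, limma adjusted p = 0.000542) and P4hb, the beta subunit of prolyl hydroxylase, 1.32 higher (SE 0.10, adjusted p = 6.8e-06). P4ha2, its catalytic partner, was 1.02 higher, the prolyl 3-hydroxylase gene P3h3 0.90 higher and Crtap, which works with the 3-hydroxylases, 0.84 higher. Serpinh1, the collagen chaperone HSP47, had a difference of 0.24 that was not called (limma adjusted p = 0.146).

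Of 8 tested genes of collagen degradation, 7 were higher with embelin and 0 lower. Mmp13, an interstitial collagenase, was 3.33 higher (SE 0.37, limma adjusted p = 6.5e-05) and Mmp3, stromelysin, 2.85 higher (SE 0.26, adjusted p = 2.11e-05). The inhibitors Timp3 and Timp1 were higher as well, by 1.01 and 0.66, and the gelatinase Mmp2 by 0.90. In DMSO cells at 48 h against GM, 4 of these 8 genes were higher and 2 lower, the 2 being Timp1 (-0.93) and Timp3 (-0.59).

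Of 10 tested genes of export and cleavage of procollagen, 5 were higher and 2 lower with embelin. Pcolce, an enhancer of the C-propeptide protease, was 0.90 higher and the protease gene Bmp1 0.74 higher, whereas Pcolce2, the paralogue of Pcolce, had a difference of -1.15. In the cross-linking list of 4 genes, lysyl oxidase Lox was 1.85 higher (SE 0.18, limma adjusted p = 2.71e-05), and Loxl4, not detected with embelin, was at least 1.33-fold lower. Of 5 small proteoglycans that regulate fibrils, Dcn was 2.28 higher (SE 0.76, limma adjusted p = 0.0353) and Fmod, not detected with embelin, at least 3.62-fold lower, and all 5 were higher at 48 h in DMSO cells than in GM.

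Collagen receptors had 2 of 6 tested genes higher and 1 lower with embelin: Itga10 was 1.15 higher (SE 0.28), Ddr2 0.45 higher (SE 0.15), and Itga11, a chain of a fibril-binding integrin, had a difference of -1.85 (SE 0.54, limma adjusted p = 0.0203). Itga11 had been among the genes raised in DMSO cells at 48 h, by 4.60. Among 9 partners of collagen VI and the basement membrane, 4 were higher with embelin and 2 lower: Nid1 (1.79), fibronectin Fn1 (1.72), Nid2 (1.18) and Sparc (0.48) were higher, and the collagen VI receptor gene Cspg4 (-1.08) and Agrn (-0.36) lower. The summed signal of the fibroblast markers was 1440 to 1580 with embelin at 48 h, against 698 to 761 with DMSO, with Thy1, Dpt and Tcf21 below detection throughout and Ly6a at a mean log2 signal of 10.3 with embelin and 9 with DMSO. That of the myotube markers was 59500 to 64600 with embelin, against 76400 to 78300 with DMSO. Their part in the collagen values was not tested.

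**Figure D5:**
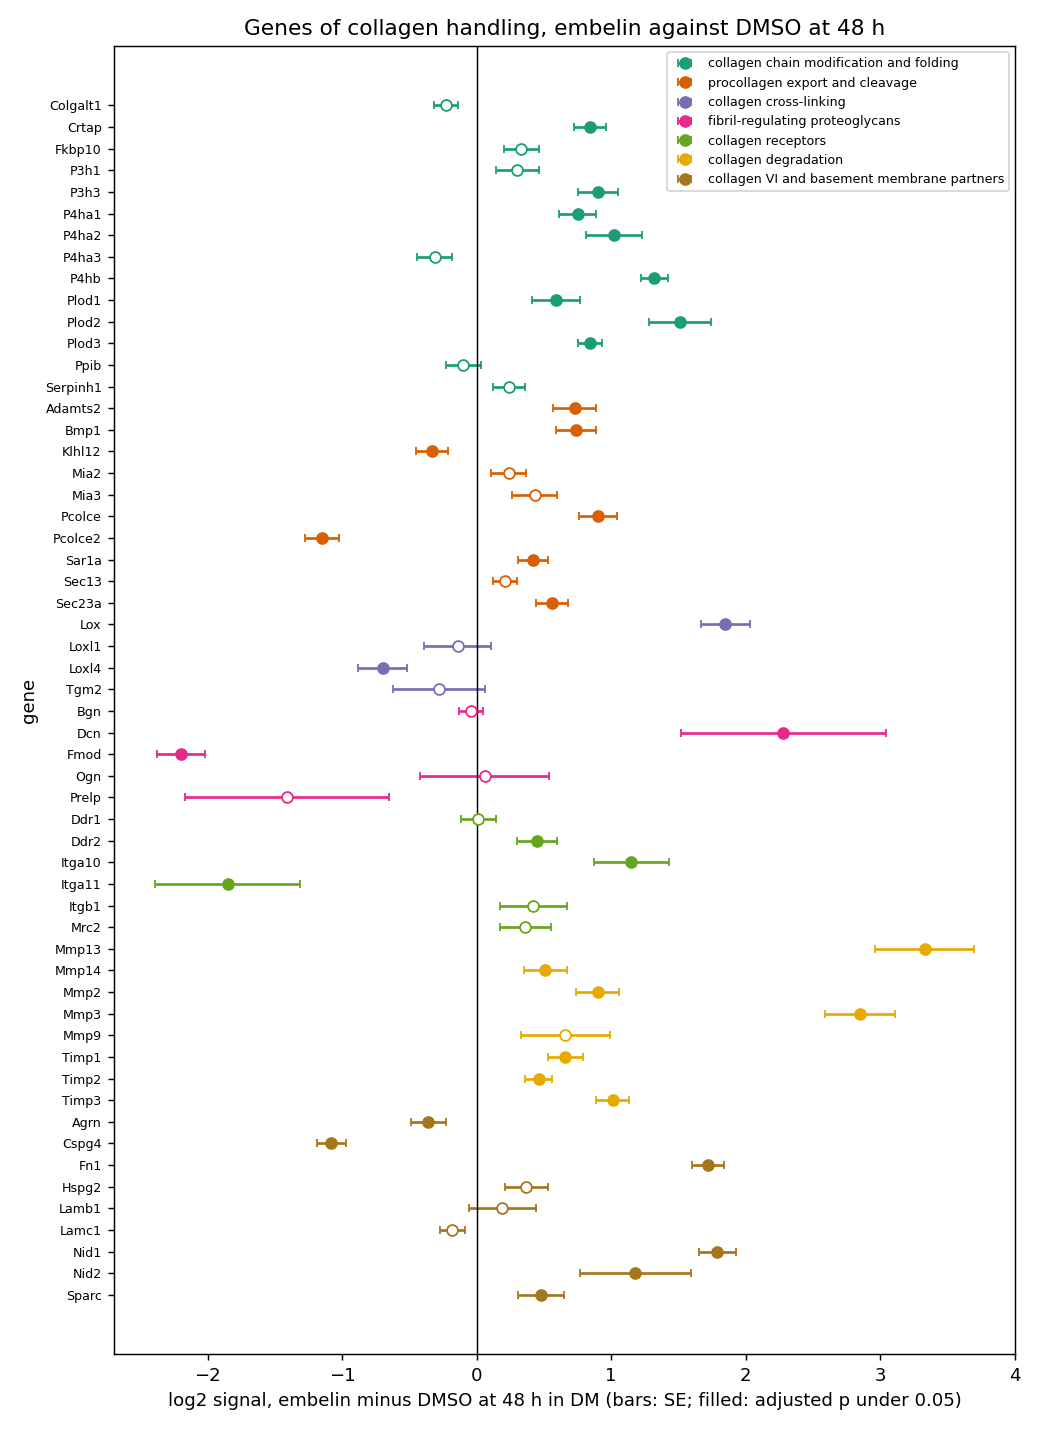
Log2 difference of embelin minus DMSO at 48 h in DM for the tested genes of 7 lists of collagen handling (colours), with bars of 1 SE (limma, 2 arrays a group), filled where the adjusted p was under 0.05. Mmp13 at 3.33 and Mmp3 at 2.85 lie farthest to the right, and Fmod at -2.20 and Itga11 at -1.85 farthest to the left. Fmod and Loxl4 were not detected with embelin, so their points rest on signals below detection there.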

How the data were processed

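Gene expression was measured on 12 single-colour Illumina MouseWG-6 bead arrays, 2 for each of 6 groups. Per the file headers, the deposited intensity of a probe is its mean bead signal and was not normalized, and the deposited detection score is 1 minus the detection p. GenomeStudio 2010.2 is named in the submitters' processing notes and 1.8.0 in the file header. The deposited table also holds bead standard deviations (intensity) and bead numbers (other). The deposited log2 matrix, which the authors centred on each probe, matched log2 signal minus the array's 75th percentile and the probe median within 0.006 for 100% of values, and its column medians run from -0.14 to 0.09.

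Probe names were updated through RefSeq (GRCm38.p6): 27760 probes matched a current symbol and 7993 a synonym, and 9528 kept the file's name. Signals were normalized with neqc (R 4.3.3, limma 3.58.1; offset 16), taking control statistics from the detection p. Of 45281 probes, 16981 passed detection, and the brightest probe of each of 11452 genes was fitted on 6 group means over all 12 arrays (6 residual and 4.51 prior degrees of freedom). The call threshold was an adjusted p (Benjamini-Hochberg, all genes tested) under 0.05. For a called gene detected on no array of 1 of 2 groups compared, the text gives a bound. For Col9a1 and Col11a2, which were not called, it gives the fitted difference. Fitted differences of effects, medians and figure points include signals below detection.

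The collagen genes, the related lists and the tests were chosen with earlier results of these data known. Any collagen gene that passed may be named, with array values for those called for embelin in DM or among the 5 largest changes each way in DMSO cells at 48 h, and up to 5 genes of each list by size of change, plus, chosen after their values were seen, Serpinh1, Agrn and array values at 24 h and in GM. Comparisons of embelin with DMSO at 48 h and of DMSO cells at 48 h with GM share the 48 h DMSO arrays, so their values are set side by side only. The pipeline was tested on simulated data. Other software was matplotlib 3.10.9, pandas 2.3.3 and numpy 2.4.6 under Python 3.11.15.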

Additional observations from a re-analysis of the deposited data

Results flagged for a closer look

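For 5 collagen genes, the effect of embelin differed between 48 h and 24 h in DM by the interaction test in limma. The difference between the effects was -3.39 for Col8a2, -2.92 for Col24a1, -0.77 for Col23a1, -0.70 for Col18a1 and 1.29 for Col12a1 on the log2 scale. For 4 of them the effect at 48 h in DM also differed from that in GM, by -3.96 for Col8a2, -2.58 for Col24a1, -0.74 for Col23a1 and -0.46 for Col18a1. Col12a1 was not called against GM by its brightest probe (limma adjusted p = 0.0717), but was called in 5 of 21 alternatives. A second Col12a1 probe was called against GM, at 1.21 (limma adjusted p = 0.0176) in a fit of all passing probes. The 2 sets of differences share the arrays at 48 h. A second probe of Col18a1 was called for neither difference, at -0.59 against 24 h and -0.02 against GM. Col23a1 was detected on the 48 h DMSO arrays alone, so both of its values depend on signals below detection. Col24a1 was below detection on all GM arrays and Col8a2 on those of DMSO cells, so the values against GM of these genes do so as well.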

How the results depend on the processing

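The precision is limited by 2 arrays a group, and for collagen genes below detection in a group it is limited further. Of the values of single collagen genes under the alternatives, 4814 kept their side of the threshold (82 of them, called in neither setting, changed sign), 65 gained a call, 115 lost it, and 0 changed sign while called. Col8a2, Col24a1 and Col23a1 were lower and Col12a1 higher with embelin at 48 h under every alternative that tested them (20, 20, 20 and 21), as was Col18a1 lower (21). Col23a1 passed the filter only through the 48 h DMSO arrays, which favoured its call.

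The number of collagen genes called moved as follows, and the cause was not tested except where fewer genes were tested. Between 24 h and 48 h it was 3 in DMSO cells and 2 in embelin cells with median scaling, and 3 in each without a detection filter. With the 14 genes detected on all 12 arrays, it was 3 for embelin at 48 h, 2 for DMSO at 48 h against 24 h, and 2 for each difference of embelin effects. With a trended and robust prior it was 7 for the effect at 48 h minus that in GM. Leaving out 1 array at a time gave 5 to 8 for embelin at 48 h, 0 to 0 at 24 h and 0 to 9 in GM, and 2 to 10 and 3 to 6 for the effect at 48 h minus that in GM and at 24 h. For DMSO cells it gave 19 to 21 at 48 h, 19 to 19 at 24 h and 2 to 6 between them, and for embelin cells 17 to 19, 18 to 19 and 1 to 9. The effect at 48 h minus that in GM reached 10 without replicate 1 of the embelin GM group and 2 without replicate 2 of the 48 h embelin group, and that minus the effect at 24 h was 3 without replicate 1 of the 24 h embelin group or replicate 2 of either 48 h group.

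The deviations of same-numbered replicates had a correlation over 0.1 in 7 of 15 pairs of groups (-0.03 to 0.24 in all). The 6 pairs among the 4 DM groups were all over 0.1 (0.13 to 0.24). Since not every pair was, the numbers were not used as pairs. With a replicate block, 6 collagen genes were called for embelin at 48 h, 20 for DMSO cells at 48 h and 19 at 24 h, 4 for the effect at 48 h minus that at 24 h (Col12a1 had an adjusted p of 0.0512 in limma) and 5 for that minus GM. Over all genes, embelin at 24 h had 6 calls, against 0 with the block or median scaling, 0 to 9 with 1 array left out, 3 without a filter or with mean probes, 12 with 75th percentile scaling or the series matrix, 27 with an offset of 50 and 39 with the trended prior. The difference of effects between 48 h and 24 h had 1088 calls with median scaling, against 1639. Median scaling shifted the median of all genes from GM to -0.33 at 48 h and -0.30 at 24 h in DMSO cells and to -0.19 and -0.24 in embelin cells.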
